A study of Mus musculus with 18 samples.

Results

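The dentate gyrus and the neighbouring CA fields of the hippocampus are built from different excitatory neurons, and 32 genes that mark them were followed here across the study's 3 deposited comparisons. The members were chosen by name from a list drawn up with earlier results of these tables in view, and all 32 were found among 24015 gene rows. They fall into a granule set of 16 genes, a pyramidal set of 10 genes (7 listed for CA1 and 3 for CA3), 2 transcription factor genes known from both granule and CA1 neurons, and 4 further genes whose place among these neurons is less settled. Because the same tables were in view when the genes were picked, every count and value below describes these genes and tests nothing about them.

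The material was RNA from microdissected dentate gyrus of C57BL/6 mice aged 8 weeks, in 18 libraries of 1 mouse each. There were 6 groups of 3 libraries. EYFP_OE mice overexpressed the fluorescent protein EYFP and served as the control of cFos_OE mice, which overexpressed c-Fos, one of the proteins that make up AP-1. A control hairpin RNA was carried by shRNA-Ctrl_E0 and shRNA-Ctrl_E1 mice, and a hairpin named for c-Fos by shRNA-cFos_E0 and shRNA-cFos_E1 mice. The deposited tables compare E1 with the sham state within each hairpin, in a study of neuronal activation. The labels used here give neither the way the constructs were delivered, nor the cells that received them, nor what E1 stands for. The authors' deposited tables hold a mean normalized count over the libraries of a comparison and a log2 fold change with its standard error (SE), so no value per mouse can be shown and library depth is unknown. Fos, the targeted gene, had a log2 fold change of 3.36 ± 0.14 at E1 with shRNA-Ctrl, 2.33 ± 0.15 at E1 with shRNA-cFos and 3.34 ± 0.20 with overexpression in the authors' deposited tables. Fold changes in the authors' deposited tables are shrunken toward 0, and unequally between tables. With the shrinkage removed, Fos stood at 3.58, 2.55 and 6.02 in the same order, computed from the authors' deposited tables, so the first and last deposited values are not to be read as equal. The value of 6.02 is itself uncertain, because the SE of Fos lies close to the largest SE of that table.

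Granule neurons are the principal cells of the dentate gyrus. Their identity is set and maintained by the homeodomain factor Prox1, and their axons, the mossy fibres, contact CA3 pyramidal neurons. CA1 and CA3 pyramidal neurons express other sets of genes, so a dissected dentate gyrus would carry their transcripts mainly through neighbouring tissue or through low expression in its own cells. In bulk tissue, fewer cells of a type and less RNA per cell cannot be told apart.

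The granule genes had a higher median level than the CA1 genes when compared per length, with overlapping ranges. The mean normalized count per kb of exon, from the authors' deposited table of the shRNA-Ctrl arm with exon lengths from GENCODE, had a median of 325 over the 16 granule genes and 76.9 over the 7 CA1 genes. The granule genes ranged from 42.5 for Glis3 to 2036 for C1ql2 on this scale, computed from the authors' deposited table. The CA1 genes ranged from 20.5 for Pou3f1 to 283 for Wfs1 on the same scale from the authors' deposited table. Of the 3 genes listed for CA3, Bok (738) and Cpne4 (562) lay above every CA1 gene and inside the granule range per kb, and Iyd stood at 81.3, from the authors' deposited table. These levels compare different genes, so they do not test the granule label. The name CA3 is kept below only as the name of that list, since its 2 more abundant genes had levels like those of granule genes.

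With the control hairpin, most granule genes were lower at E1, and no CA1 gene passed the test. By the authors' deposited table of this arm, 11 of 16 granule genes fell, 1 rose and 4 did not pass the authors' adjusted p of 0.05, with a median log2 fold change of -0.47 against 0.01 over all 15675 genes tested. Of all genes tested in that table, 16.2% were called lower, 16.8% higher and 33.0% in either direction, which is the background for these counts. Over the whole list of 32, the authors' deposited table called 16 lower and 2 higher.

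Prox1, which specifies granule identity, had estimated levels of 3120 normalized counts at E0 and 2362 at E1, a log2 fold change of -0.39 ± 0.09, per the authors' deposited table. Tdo2, which encodes the tryptophan-degrading enzyme tryptophan dioxygenase, went from an estimated 432 to 211 (-0.96 ± 0.15 in the authors' deposited table). Dsp encodes desmoplakin, a plaque protein of desmosomes, and had a log2 fold change of -0.84 ± 0.13, per the authors' deposited table. Tdo2 and Dsp had the 2 largest falls of the granule set.

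Among genes for proteins of the mossy fibre synapse and of secretion, the paralogs C1ql2 and C1ql3 went apart. Both encode secreted C1q-like proteins that organise synapses. C1ql2 stood at an estimated 5249 at E0 and 2896 at E1 (-0.73 ± 0.21 in the authors' deposited table). C1ql3 stood at an estimated 4355 and 4998 (0.20 ± 0.07 in the authors' deposited table) and was the granule gene that rose. Stxbp6, which encodes the SNARE-binding protein amisyn, fell by 0.60 on the log2 scale in the authors' deposited table. The integrin ligand gene Npnt had a log2 fold change of -0.51 ± 0.09, per the authors' deposited table, and the lactase gene Lct one of -0.59 ± 0.21.

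Regulatory genes of the granule set followed. The authors' deposited table gave log2 fold changes of -0.52 ± 0.10 for Maml2, a Notch coactivator gene, -0.48 ± 0.10 for Rfx3, a factor of ciliary genes, and -0.45 ± 0.09 for Smad3, a transducer of TGF-beta and activin signals. Plk5, a polo-like kinase family gene expressed in neurons, stood at -0.47 ± 0.14 in the authors' deposited table. The 4 granule genes that did not pass were Calb1 (-0.06 ± 0.08), which encodes the calcium buffer calbindin, the guanine nucleotide exchange factor gene Dock10 (-0.04 ± 0.07), the cation channel gene Trpc6 (-0.04 ± 0.08) and the zinc finger factor gene Glis3 (-0.17 ± 0.10), from the authors' deposited table.

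The largest falls of the whole list lay outside the granule set proper. Lrrc10b, a leucine-rich repeat protein gene, went from an estimated 1508 to 672 (-1.11 ± 0.12 in the authors' deposited table). Creg2, a gene for a secreted glycoprotein, went from 4063 to 1889 (-1.08 ± 0.08 in the authors' deposited table). Bcl11b, a zinc finger factor gene of granule and CA1 neurons, had a log2 fold change of -0.81 ± 0.09, per the authors' deposited table, while Zbtb20, the other shared factor gene, rose by 0.46 ± 0.11 there. The tetraspanin gene Tspan18 (-0.13 ± 0.09) and Fam163b (-0.27 ± 0.11) did not pass in the authors' deposited table.

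**Figure D1:**
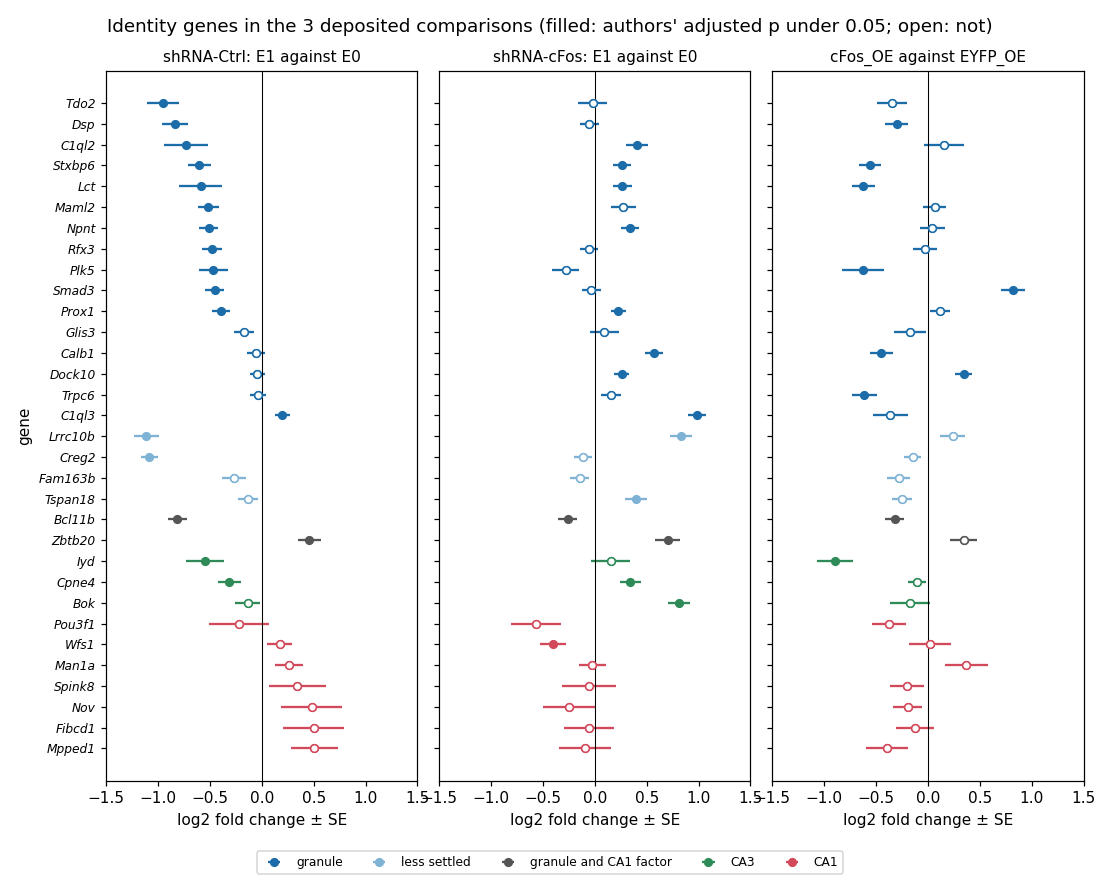
Log2 fold change (x axis, bars show the authors' SE) of each of the 32 genes (y axis) in the 3 deposited comparisons, coloured by list, with filled points for genes past the authors' adjusted p of 0.05 and open points for the others. In the shRNA-Ctrl panel 15 of 16 granule genes lie below 0 and 6 of 7 CA1 genes above it, while all CA1 points there are open.

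CA1 genes with the control hairpin had values mostly above 0 and wide errors. In the authors' deposited table a total of 6 of 7 CA1 genes stood above 0 and 0 passed the adjusted p, with a median log2 fold change of 0.34. The metallophosphoesterase family gene Mpped1 (0.51 ± 0.23), the chitin-binding receptor gene Fibcd1 (0.50 ± 0.29) and the matricellular protein gene Nov (0.48 ± 0.29) had the highest values in the authors' deposited table. The peptidase inhibitor gene Spink8 (0.34 ± 0.28), the Golgi mannosidase gene Man1a (0.26 ± 0.14) and Wfs1 (0.17 ± 0.12), which encodes the endoplasmic reticulum protein wolframin, followed in the authors' deposited table. Pou3f1, a POU domain factor gene, stood at -0.22 ± 0.29 there. The CA3-listed genes were on the other side. Iyd, which encodes iodotyrosine deiodinase, fell (-0.55 ± 0.18), as did the copine gene Cpne4 (-0.32 ± 0.11), and the Bcl2 family gene Bok stood at -0.14 ± 0.12 without passing, in the authors' deposited table.

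The errors of the CA1 genes were wide for their levels. The SE of Fibcd1 with shRNA-Ctrl was 3.34 times the median SE of the 200 tested genes nearest to it in mean count, that of Mpped1 was 2.47 times and that of Nov 1.98 times, computed from the authors' deposited table. The median of this ratio was 1.61 over the CA1 genes and 1.13 over the granule genes. C1ql2 (2.64) and Lct (2.46) had the widest relative errors of the granule set, computed from the authors' deposited table. With shRNA-cFos, Mpped1 (2.51) and Fibcd1 (2.39) were again wide, whereas C1ql2 stood at 1.30 and Lct at 0.96, computed from the authors' deposited table. A wide SE at a given mean count reflects libraries of a group that differ more from each other, and which libraries these were cannot be read from the tables.

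**Figure D2:**
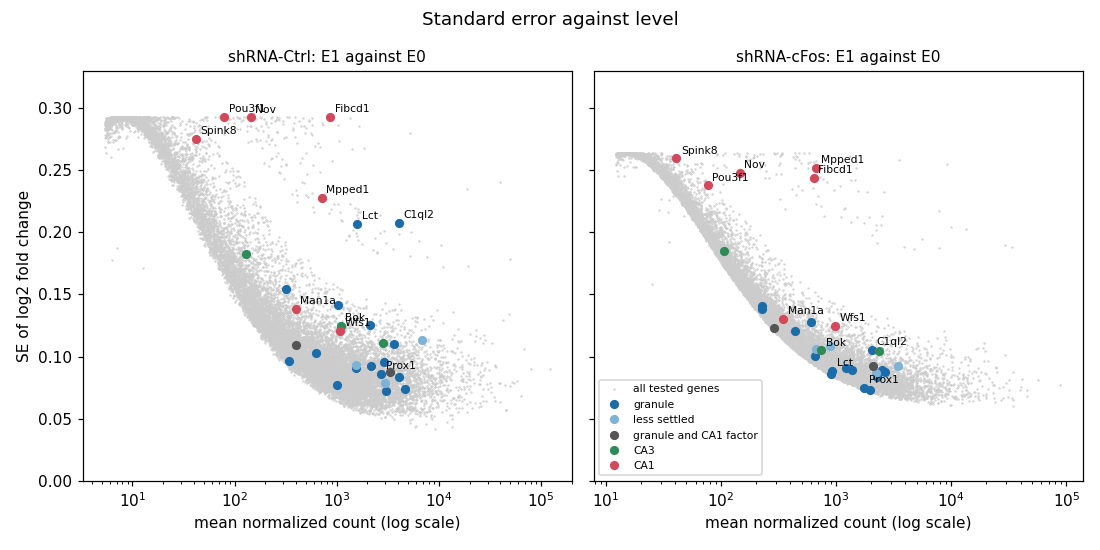
SE of the log2 fold change (y axis) against mean normalized count (x axis, log scale) for all tested genes (grey) and the 32 identity genes (coloured by list) in the 2 shRNA tables. Fibcd1 and Mpped1 lie far above the grey band in both panels, and C1ql2 and Lct in the shRNA-Ctrl panel.

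With the hairpin named for c-Fos, none of the 16 granule genes of the list was called lower at E1. By the authors' deposited table of this arm, 8 of 16 granule genes rose, 0 fell and 8 did not pass, with a median log2 fold change of 0.24 against 0.00 over all 14388 genes tested. The background shares in that table were 16.3% called higher, 11.7% lower and 28.1% in either direction. The share called lower is small, so 0 of 16 granule genes called lower says little by itself. Over the list of 32, the authors' deposited table called 13 higher and 2 lower. The calls held 5 granule genes that fell with shRNA-Ctrl and rose here, namely Prox1, C1ql2, Lct, Stxbp6 and Npnt. The share of all tested genes with this pair of calls was not computed, so the count describes these genes only.

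C1ql3 had the largest rise, from an estimated 1757 normalized counts at E0 to 3543 at E1 (0.98 ± 0.09 in the authors' deposited table). Its paralog C1ql2 went from 1755 to 2357 (0.41 ± 0.11 in the authors' deposited table). Calb1, not called with shRNA-Ctrl, went from 1984 to 2975 (0.57 ± 0.09 in the authors' deposited table). Prox1 had a log2 fold change of 0.23 ± 0.07, Npnt 0.34 ± 0.09, Lct 0.26 ± 0.09, Stxbp6 0.26 ± 0.09 and Dock10 0.26 ± 0.07 in the authors' deposited table. The 8 others ran from Plk5 (-0.28 ± 0.13) to Maml2 (0.27 ± 0.12) in the authors' deposited table, with Tdo2 (-0.02 ± 0.14), Dsp (-0.06 ± 0.09), Rfx3 (-0.06 ± 0.08) and Smad3 (-0.03 ± 0.09) close to 0. These 4 had all fallen with the control hairpin.

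Outside the granule set, Lrrc10b went from an estimated 469 to 853 (0.83 ± 0.11), the opposite of its course with shRNA-Ctrl, and Tspan18 rose (0.40 ± 0.11), in the authors' deposited table. Creg2 (-0.11 ± 0.09) and Fam163b (-0.15 ± 0.09) did not pass in the authors' deposited table. Bok rose from 531 to 953 (0.81 ± 0.10) and Cpne4 by 0.34 ± 0.10, whereas Iyd (0.15 ± 0.18) did not pass, in the authors' deposited table. The 7 CA1 genes all had values below 0, with a median of -0.10, and Wfs1 (-0.40 ± 0.12) passed in the authors' deposited table. The lowest CA1 value, that of Pou3f1 (-0.57 ± 0.24), did not pass in the authors' deposited table. Zbtb20 rose here too (0.70 ± 0.12) and Bcl11b fell by less than with shRNA-Ctrl (-0.26 ± 0.09), in the authors' deposited table.

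Set against each other, the 2 responses placed the 7 CA1 genes on 1 side of 0 and the rest of the list on the other. The difference of the log2 fold changes, shRNA-cFos less shRNA-Ctrl, was above 0 for all 16 granule genes, the 3 CA3-listed genes, the 4 less settled genes and both shared factor genes, and below 0 for all 7 CA1 genes, computed from the authors' deposited tables. The list was chosen with these responses known, so the split is a description. Of the 14386 genes with a test in both arms, 23.8% differed at an adjusted p of 0.05, 12.9% with a higher and 11.0% with a lower value with shRNA-cFos. Of the 32 genes, 20 had a higher and 1 a lower value by the same rule (normal approximation, Benjamini-Hochberg over all genes), computed from the authors' deposited tables. The granule median of the difference was 0.70 and the CA1 median -0.56, beside 0.01 over all genes.

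Lrrc10b differed most, by 1.94 ± 0.16, followed by C1ql2 (1.14 ± 0.23), Creg2 (0.97 ± 0.12), Bok (0.95 ± 0.16) and Tdo2 (0.93 ± 0.21), computed from the authors' deposited tables. Prox1 differed by 0.62 ± 0.11 and Calb1 by 0.62 ± 0.12, computed from the authors' deposited tables. Wfs1 was the gene with the lower value that passed (-0.57 ± 0.17). Nov (-0.73 ± 0.38), Mpped1 (-0.60 ± 0.34) and Fibcd1 (-0.56 ± 0.38) had differences of similar or larger size than Wfs1 and did not pass, computed from the authors' deposited tables. Plk5 (0.18 ± 0.19), Trpc6 (0.20 ± 0.13), Glis3 (0.26 ± 0.17), Fam163b (0.12 ± 0.15) and Zbtb20 (0.24 ± 0.16) were the genes above 0 that did not pass.

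**Figure D3:**
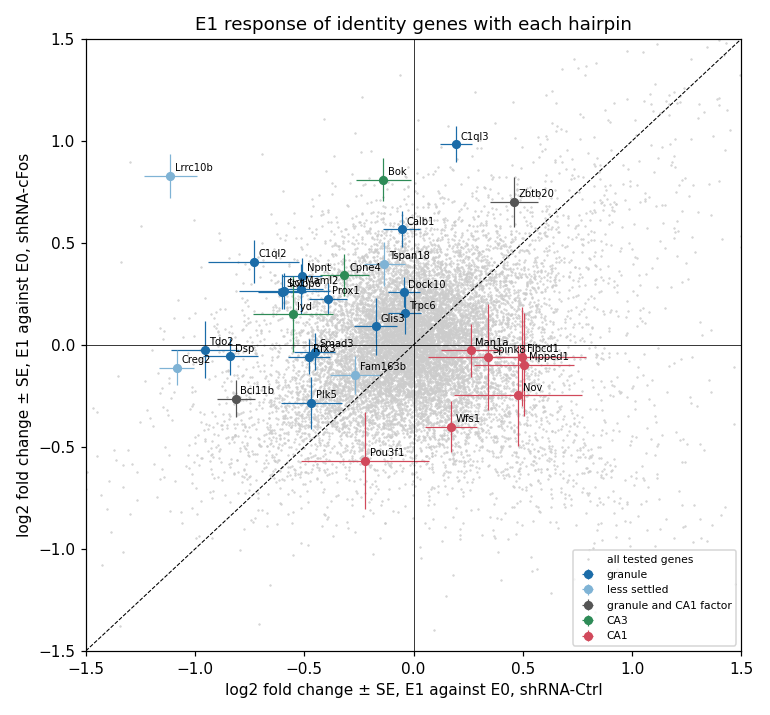
Log2 fold change at E1 with shRNA-cFos (y axis) against that with shRNA-Ctrl (x axis), bars showing the authors' SE, for the 32 identity genes over all tested genes (grey, drawn within ±1.5), with a dashed line of equal response. All CA1 genes lie below the dashed line and the other 25 genes above it, with Lrrc10b farthest from it.

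The granule and CA1 genes stood apart at E0, and several other lists leaned to 1 side as well. Levels were estimated from each mean and fold change and set across the shRNA tables, which were normalized separately, by subtracting the median log2 ratio at E0 of 12405 genes (-0.43). No error can be given for them. On this scale all 16 granule genes were lower at E0 with shRNA-cFos than with shRNA-Ctrl, with a median log2 ratio of -0.51 and a range from -1.15 (C1ql2) to -0.14 (Rfx3), computed from the authors' deposited tables. All 7 CA1 genes were higher at E0, with a median of 0.59 and a range from 0.40 (Man1a) to 1.14 (Nov), computed from the authors' deposited tables. The median is the value of Fibcd1. The ratios of Fibcd1, Nov and Pou3f1 are uncertain, because their SEs with shRNA-Ctrl lie close to the largest SE of that table. That of Spink8 is uncertain for the same reason with shRNA-cFos, so the size of the CA1 values is less sure than their side of 0. At E1 the medians were 0.11 for the granule genes and -0.02 for the CA1 genes. The CA3-listed genes also lay below 0 at E0 and higher at E1, as the granule median did, with medians of -0.21 and 0.50, computed from the authors' deposited tables. Iyd (-0.21 and 0.59), Cpne4 (-0.19 and 0.50), Rfx3 (-0.14 and 0.30), Creg2 (-0.38 and 0.61) and Tdo2 (-0.50 and 0.51) had the larger ratio in size at E1, computed from the authors' deposited tables. Without the scaling, the E0 medians were -0.94 and 0.16 and the E1 medians -0.33 and -0.46, from the authors' deposited tables. The gap between granule and CA1 genes at E0 does not depend on the shift. The sign of the E1 granule median does, and so does that of Man1a at E0, which stood at -0.03 without it. Whether the CA1 genes were closer between the hairpins at E1 than at E0 depends on the shift too, since their unscaled median was farther from 0 at E1. The larger size at E1 of Iyd, Cpne4, Rfx3, Creg2 and Tdo2 rests on the shift as well. Without it, in that order, their ratios were -0.64, -0.62, -0.57, -0.81 and -0.93 at E0. At E1 they were 0.16, 0.07, -0.13, 0.18 and 0.08, smaller in size. The unscaled medians of the CA3-listed genes were -0.64 at E0 and 0.07 at E1. On the scaled values at E0, 0 of 9 further granule genes and 2 of 10 granule lineage factors, both lists described below, were above 0. So were 5 of 6 mossy cell genes, 4 of 4 endothelial genes and 5 of 6 activity-induced genes, with medians of 0.22, 0.19 and 0.26. These last 3 medians were below 0 without the shift. Microglial genes were above 0 in 3 of 6 cases.

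**Figure D4:**
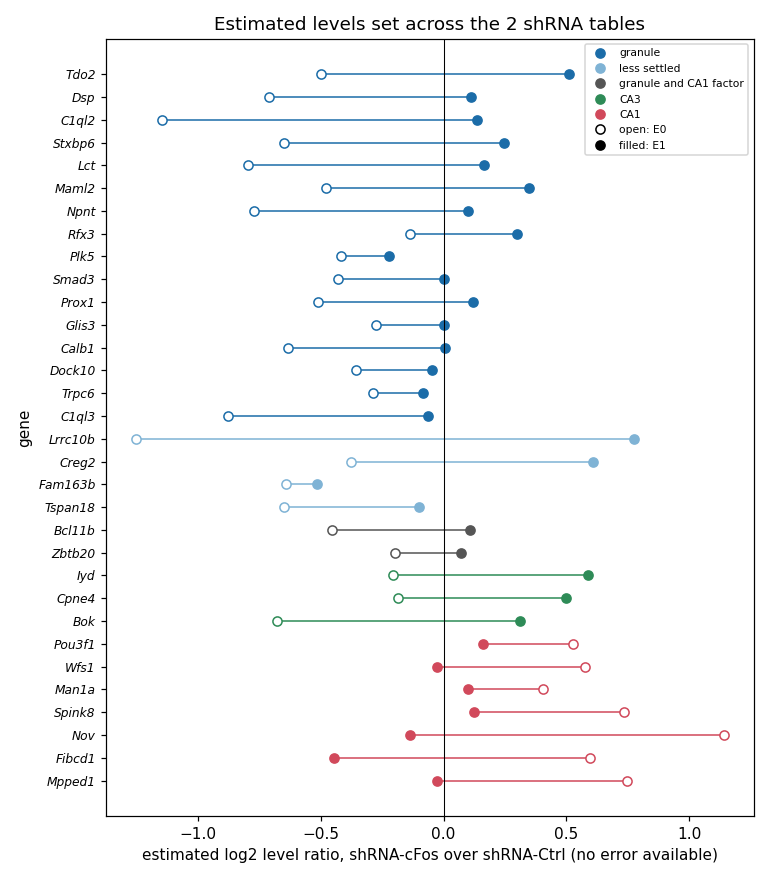
Estimated log2 ratio of levels, shRNA-cFos over shRNA-Ctrl (x axis, scaled by the median of all genes, no error available), at E0 (open) and E1 (filled) for each of the 32 genes (y axis). At E0 the granule genes lie between -1.15 and -0.14 and the CA1 genes between 0.40 and 1.14, and at E1 the 2 sets overlap around 0. The positions of Fibcd1, Nov, Pou3f1 and Spink8 are uncertain.

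With c-Fos overexpression and no E1 step, the granule genes split. Of the 16 granule genes, 6 fell, 2 rose and 8 did not pass, per the authors' deposited table. Their median log2 fold change was -0.24 against -0.01 over all 15827 genes tested. Among all genes there, 5.86% were called lower, 7.1% higher and 13.0% in either direction. Over the list of 32, the authors' deposited table called 8 lower and 2 higher.

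Smad3 had the largest rise, from an estimated 1814 normalized counts with EYFP to 3373 with c-Fos (0.82 ± 0.11 in the authors' deposited table), although it fell at E1 with shRNA-Ctrl. Dock10 also rose (0.34 ± 0.09 in the authors' deposited table). The genes that fell were Plk5 (-0.63 ± 0.20), Lct (-0.62 ± 0.11), Trpc6 (-0.61 ± 0.12), Stxbp6 (-0.56 ± 0.11), Calb1 (-0.45 ± 0.11) and Dsp (-0.30 ± 0.11), in the authors' deposited table. With the shrinkage removed Plk5 stood at -1.08, whereas Lct and Trpc6 were both at -0.68, computed from the authors' deposited table. The value of -1.08 is uncertain, because the SE of Plk5 lies close to the largest SE of that table. Of these, Calb1 and Trpc6 were not called at E1 with shRNA-Ctrl. The call of Dsp was lost when every gene with a p was included in the adjustment (adjusted p = 0.0554, from the authors' deposited p-values). Prox1 (0.12 ± 0.10), C1ql2 (0.16 ± 0.20) and C1ql3 (-0.36 ± 0.17) did not pass in the authors' deposited table.

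Iyd had the largest change of the whole list, from an estimated 142 to 63.2 (-0.89 ± 0.17 in the authors' deposited table). Bcl11b fell (-0.32 ± 0.09 in the authors' deposited table), as in both shRNA tables. None of the 7 CA1 genes passed, with values from -0.39 ± 0.20 (Mpped1) to 0.37 ± 0.20 (Man1a) in the authors' deposited table. Lrrc10b (0.24 ± 0.12) and Creg2 (-0.15 ± 0.08), which had the largest falls at E1 with shRNA-Ctrl, did not pass with overexpression in the authors' deposited table.

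Further genes known from granule neurons also mostly fell with the control hairpin. These lists too were drawn up with earlier results of these data known, so their counts describe and test nothing. Of all genes tested, 16.8% were called higher and 16.2% lower with shRNA-Ctrl. The shares were 16.3% and 11.7% with shRNA-cFos, and 7.1% and 5.86% with overexpression. Of 9 such genes outside the list, 8 fell and 0 rose at E1 with shRNA-Ctrl (median -0.40), from Gsg1l (-0.75) to Pdzd2 (-0.10), in the authors' deposited table. In the c-Fos hairpin arm 3 rose and 3 fell (median -0.04), unlike the granule set, where 8 rose and 0 fell. With overexpression 1 rose and 3 fell (median -0.26), per the authors' deposited tables. Transcription factors of the granule lineage did not follow with the control hairpin. Of 10 such genes, 3 rose and 4 fell with the control hairpin, against 7 and 1 with the c-Fos hairpin, per the authors' deposited tables. They ranged with shRNA-Ctrl from Emx1 (-0.60) to Sox11 (1.22) in the authors' deposited table.

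Markers of other cells were counted beside these genes. Of all genes tested, 33.0% were called in either direction with shRNA-Ctrl, 28.1% with shRNA-cFos and 13.0% with overexpression. Several counts below, such as 2 of 6 or 1 of 3 with the control hairpin, lie near these shares. The mossy cell list and the granule lineage list each share genes with the immature neuron list. Of 8 pan-neuronal genes 3 rose and 1 fell with shRNA-Ctrl, their summed estimated level going from 105707 to 111082, and 5 rose with shRNA-cFos, from 71686 to 98335, from the authors' deposited tables. Of 7 interneuron genes 6 rose with shRNA-Ctrl and 4 with shRNA-cFos, the sums going from 11753 to 14701 and from 7851 to 11172, from the authors' deposited tables. Of 6 microglial genes 5 rose with the control hairpin (5640 to 7079), while 2 were called lower and 1 higher with the c-Fos hairpin (4584 to 4119), from the authors' deposited tables. Of 6 oligodendrocyte genes 0 passed in any table, their sums going from 31280 to 29038, from 22662 to 21499 and, with overexpression, from 34411 to 23986, from the authors' deposited tables. Their SEs were wide for their levels. The median ratio to the SE of genes of like mean count was 1.74 with shRNA-Ctrl, 2.49 with shRNA-cFos and 2.64 with overexpression. All 6 stood below 0 with overexpression, so not passing does not show that they were unchanged. Among 6 CA2 genes 1 rose and 2 fell with the control hairpin, 2 rose and 2 fell with the c-Fos hairpin, and 2 fell with overexpression, per the authors' deposited tables. In these 5 lists 0 genes had a mean count of 0. With the control hairpin the authors' deposited table also called 2 of 6 mossy cell genes and 2 of 4 endothelial genes higher, 1 of 3 choroid plexus genes lower, 2 of 6 immature neuron genes higher, and 0 of 6 astrocyte and 0 of 2 tested subicular genes. With the c-Fos hairpin it called 1 mossy cell, 1 endothelial, 4 immature neuron and 3 astrocyte genes higher and 1 astrocyte gene lower. With overexpression 3 of 6 microglial genes were called higher (4692 to 5941), as were 3 of 6 immature neuron genes and 2 of 6 astrocyte genes, with Gfap at 0.86, and 1 astrocyte gene was lower, per the authors' deposited table. The authors' deposited table of overexpression called 2 of 4 endothelial and 2 of 6 mossy cell genes lower, 2 pan-neuronal genes higher and 2 lower, 1 interneuron gene higher and 1 lower, and 0 choroid plexus and 0 subicular genes. All 6 activity-induced genes examined rose in both arms, and with overexpression Fos rose and 4 of the other 5 fell, per the authors' deposited tables. The part of these cells in the changes of the granule and CA1 genes was not tested.

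The promoters of the genes were read because the study altered c-Fos, whose AP-1 complex binds TGAGTCA, which reads TGACTCA on the opposite strand. RefSeq windows (build GRCm38.p6) of the 250 bases before a start site were at hand for 27 of the 32 genes, 33 windows in all. AP-1 motifs were found in 0 of the 33 windows, against 4.46% of all 32851 windows, and the cyclic AMP response element TGACGTCA, its own reverse complement, in 0 against 1.55%. The element's shorter form CGTCA, searched also on the other strand as TGACG and contained in the full element, was in 7 windows, of Creg2, Fam163b, Fibcd1, Iyd, Man1a, Npnt and Trpc6, against 17.8% of all windows. With 33 windows, these counts lie near the shares of all windows and do not set the genes apart. The matches are of letters, and sites farther from the start were not searched. The windows of 3 genes are shown because Lrrc10b and Creg2 fell most with the control hairpin and C1ql3 rose most with the c-Fos hairpin. They run 5′ to 3′ on the gene's strand, ending at the base before the start site, at chr19:10457448-10457697 (minus strand) for Lrrc10b, chr1:39651183-39651432 (minus strand) for Creg2 and chr2:13010865-13011114 (minus strand) for C1ql3, in GRCm38.p6. The capitals in Creg2 mark the shorter element, which starts at position -92 from the start site.
Lrrc10b: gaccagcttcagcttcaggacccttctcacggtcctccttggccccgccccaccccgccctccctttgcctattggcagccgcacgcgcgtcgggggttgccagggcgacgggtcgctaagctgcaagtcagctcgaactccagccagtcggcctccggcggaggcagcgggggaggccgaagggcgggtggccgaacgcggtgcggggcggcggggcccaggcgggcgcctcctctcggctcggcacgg
Creg2: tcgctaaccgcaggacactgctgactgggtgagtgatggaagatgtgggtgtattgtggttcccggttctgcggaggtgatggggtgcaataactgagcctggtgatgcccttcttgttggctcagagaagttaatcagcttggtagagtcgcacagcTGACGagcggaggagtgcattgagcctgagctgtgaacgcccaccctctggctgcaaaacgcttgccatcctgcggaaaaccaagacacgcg
C1ql3: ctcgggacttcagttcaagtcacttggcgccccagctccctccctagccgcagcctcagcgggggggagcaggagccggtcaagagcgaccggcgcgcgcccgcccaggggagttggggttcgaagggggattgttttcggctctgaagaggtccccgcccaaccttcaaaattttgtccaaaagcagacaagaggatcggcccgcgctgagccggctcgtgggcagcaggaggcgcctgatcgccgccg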

How the data were processed

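RNA libraries were grouped by their titles. The submitters' processing notes name TopHat2, DESeq2 and the build mm9; for the counting tool, annotation and strand setting the sources used here give no entry. Per the file headers, the authors' deposited tables give a mean normalized count (a signal value, counts over size factors), a log2 fold change and its SE on the log2 scale, a Wald score, a p-value and an adjusted p-value. They hold 0 columns of values per library, so precision is that of the authors' SE, with a median over tested genes of 0.11 (shRNA-Ctrl), 0.12 (shRNA-cFos) and 0.12 (overexpression). A gene counted as called when the authors' adjusted p was under 0.05.

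The members and lists were chosen with earlier results of these data known. Every member is named. Genes outside the list come from marker lists: Fos always, and the highest and lowest gene where a list is described. For the difference between hairpins, the SEs of both log2 fold changes were combined as the root of their summed squares, and a 2-sided p from the normal distribution was adjusted by Benjamini-Hochberg over 14386 genes. This step was tested on simulated data that left out the shrinkage of the fold changes. Python 3.11.15, pandas 2.3.3 and SciPy 1.17.1 were used.

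The deposited fold changes are shrunken toward 0: SEs reach at most 0.29, 0.26 and 0.20, as a normal prior of SD 0.59, 0.53 and 0.41 gives. The prior was removed algebraically to estimate group levels, each mean being split by the unshrunken fold change under equal group sizes. This step has no single solution near the largest SE, where Fibcd1, Nov and Pou3f1 lie with shRNA-Ctrl, so their levels and ratios at E0 are uncertain. Spink8 lies near the largest SE with shRNA-cFos, so its levels and ratios are uncertain too. With overexpression Plk5, Man1a, Mpped1 and Wfs1 lie near the largest SE, so their unshrunken values are uncertain too. Lengths are the union of coding-transcript exons in GENCODE vM21, which may differ from the authors' annotation. Date-like names were left out of the overexpression comparison (27 rows).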

Additional observations from a re-analysis of the deposited data

Results flagged for a closer look

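The response at E1 differed between the hairpins, by the test of the difference itself over all genes, for 21 of the 32 genes, 20 with a higher and 1 with a lower value with shRNA-cFos. Over all 14386 genes tested the shares were 23.8% in either direction, 12.9% higher and 11.0% lower. The values below are log2 differences, shRNA-cFos less shRNA-Ctrl, computed from the authors' deposited tables, for genes that were chosen with these responses known. Granule genes with a higher value with shRNA-cFos were Prox1 (0.62), Calb1 (0.62), Tdo2 (0.93), Dsp (0.78), C1ql2 (1.14), C1ql3 (0.79), Lct (0.86), Stxbp6 (0.86), Dock10 (0.30), Rfx3 (0.42), Maml2 (0.79), Npnt (0.85) and Smad3 (0.42). Others with a higher value were Tspan18 (0.53), Lrrc10b (1.94), Creg2 (0.97), Bok (0.95), Iyd (0.70), Cpne4 (0.66) and Bcl11b (0.55). Wfs1 (-0.57) had a lower value.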

How the results depend on the processing

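No paired analysis was possible because the deposited tables hold comparisons and no values per library; for the same reason no replicate could be left out. The direction of each of the 32 genes in the 3 tables and in their difference was the same with the prior removed and relative to the median of all genes tested, and so were the granule and pyramidal medians. A minimum fold change of 1.5 lowered the genes called from 18 to 8 for shRNA-Ctrl, from 15 to 4 for shRNA-cFos and from 10 to 5 for overexpression, since it leaves out smaller changes. At an adjusted p of 0.01 the counts were 14, 11 and 8, and 19 of 21 for the difference, computed from the authors' deposited tables. With the prior removed the CA1 median with shRNA-Ctrl was 0.51 in place of 0.34, an uncertain value for the genes near the largest SE, and Fibcd1 stood at 0.96, Nov at 0.91 and Pou3f1 at -0.43. With overexpression Plk5 moved from -0.63 to -1.08, Man1a from 0.37 to 0.68 and Mpped1 from -0.39 to -0.70, the latter 2 not called. These unshrunken values are uncertain as well, because the SEs of the genes lie close to the largest SE there. The direction of levels set across tables rests on a shift of -0.43 between them. Library depth is unknown.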
